A study of Mus musculus with 2 samples.

Results

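A set of 9 genes was followed across the cell populations of the early mouse heart and pharynx: 7 genes of the smooth muscle contractile apparatus (Acta2, Tagln, Cnn1, Myl9, Cald1, Actg2 and Tpm2) and 2 transcriptional regulators of that apparatus (Myocd and Srf). They are 9 of the 27998 genes counted, and each symbol matched 1 row of the gene list. The genes were chosen from their measured levels in these same libraries, so their levels are given as a description and nothing is tested with them. Each group is 1 library, so no difference between the genotypes has a replicate check, and every interval below covers counting error only.

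The libraries were made from mouse embryos at embryonic day 9.5 on a Swiss Webster background. Both groups carried Mesp1Cre, which is active in the earliest heart-forming mesoderm, and 1 copy of a Rosa26-GFPflox reporter that Cre turns on in all its descendants. The Ctrl embryos (Mesp1Cre;Rosa26-GFPflox/+) had no floxed Tbx1 allele, and the cKO embryos (Mesp1Cre;Rosa26-GFPflox/+;Tbx1flox/flox) had both copies of Tbx1 flanked by loxP sites. Each library was made from the pooled tissue of a pair of embryos, and the Ctrl and cKO embryos came from different crosses. The cKO embryos had more somites than the Ctrl embryos, so that genotype and exact age cannot be told apart. Live GFP-positive cells of the pharyngeal apparatus and heart were sorted, and the 3′ ends of transcripts were counted as unique molecular identifiers (UMIs). After filtering, 6591 cells of the Ctrl library and 8969 cells of the cKO library remained, with medians of 16854 and 14192 UMIs per cell.

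Tbx1, the targeted gene, was at 26.5 CPM (UMIs scaled to counts-per-million) over all kept cells of the library labelled Ctrl (95% Poisson interval 25.6 to 27.5) and at 44.5 (43.4 to 45.7) in the library labelled cKO. The targeted gene was therefore higher and not lower in the library labelled cKO. Where the counted 3′ ends lie relative to the floxed part is not given in the sources used here, so this level does not check the deletion, and the libraries are named by their labels throughout. Lhx2 and Myf5, genes known to depend on Tbx1 in pharyngeal mesoderm, were lower in the library labelled cKO among the cardiopharyngeal progenitor cells set apart below by a Tbx1 and an Isl1 UMI: Lhx2 was at 144 and 2.82 CPM there, and Myf5 had 274 and 0 UMIs. Hbb-bh1, an embryonic globin, was at 5.43 to 8.96 CPM in each of the 9 populations compared below in the library labelled cKO and at 0 to 1.18 in the library labelled Ctrl, and Hba-x, another, at 46.0 to 59.2 and at 0 to 0.711. The libraries shared 15 cell barcodes.

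Smooth muscle cells contract through a cytoplasmic actin and myosin system rather than through sarcomeres. Its genes are switched on by serum response factor (SRF), which binds a short element called the CArG box, together with the coactivator myocardin (MYOCD). Before definitive smooth muscle exists, the embryonic myocardium itself transcribes many of these genes, and myocardin is also a cofactor of heart muscle genes. Posterior second heart field cells lie behind the heart tube. They add myocardium to the venous pole and contribute to the mesenchyme of the ventral foregut and lung, where smooth muscle later forms.

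Populations were defined by UMIs of marker genes in each cell, here called gates. The cardiomyocyte gate required at least 5 Tnnt2 UMIs with at least 1 Actn2 and 1 Ttn UMI, all sarcomere genes. The posterior heart field gate required at least 1 Osr1 and 1 Foxf1 UMI. It held 1078 cells of the library labelled Ctrl and 1024 cells of the library labelled cKO, and the cardiomyocyte gate held 162 and 315 cells. Only 2 and 4 cells passed both gates and were kept apart. Genes that the gates did not use were then read as a check of the names. Of 9 further heart muscle genes, 9 reached 20 CPM in the cardiomyocyte gate of each library, against 2 and 3 in the posterior heart field gate. Of 7 further posterior heart field genes (Wnt2, Tbx5, Hoxb1, Foxf2, Isl1, Gata4 and Nkx6-1), 7 and 6 did so in the posterior heart field gate of the libraries labelled Ctrl and cKO. Of the same 7, Wnt2, Tbx5, Isl1 and Gata4 also reached it in the cardiomyocyte gate, whereas Foxf2 and Nkx6-1 had 0 UMIs there in the library labelled Ctrl and 3 and 1 in the other. Wnt2 was even higher in the cardiomyocyte gate, at 137 and 164 CPM against 113 and 117 in the posterior heart field gate. So was Gata4, at 58.3 and 41.0 against 36.9 and 31.5. Tbx5, Hoxb1, Foxf2, Isl1 and Nkx6-1 were lower in the cardiomyocyte gate. Barx1, a gene of foregut mesenchyme, was at 208 and 249.6 CPM in the posterior heart field gate, while Tbx5 was at 94.2 and 65.8. In the cardiomyocyte gate Barx1 was at 6.94 and 14.2. Of the other 2 genes of the foregut and lung mesenchyme list, Nkx2-3 had 0 and 10 UMIs and Tbx4 had 20 and 6 in the posterior heart field gate. The gate therefore also held a foregut mesenchyme transcript, and its part in the differences between the libraries was not tested. Myh11, the myosin of mature smooth muscle, had 8 and 7 UMIs in the cardiomyocyte gate and 1 and 0 in the posterior heart field gate, the last allowing up to 0.176 CPM. No gate of mature smooth muscle cells was drawn. The genes are called smooth muscle genes here by their textbook role, not by the cells in which they were found.

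CArG boxes were looked for in the 250 bases before an annotated start of each gene, to show where SRF-type elements lie near a start of genes whose levels are described below. The windows came from a RefSeq-derived promoter table of GRCm38.p6, which held 6 of the 9 genes. Tagln, Actg2 and Myocd had no entry. A box was taken as 2 C, then 6 bases that are A or T, then 2 G, a pattern that reads the same on both strands, and a near box as one with 1 G or C among its 6 inner bases. An exact box stood in 1.47% of all 32851 windows, and an exact or near box in 8.59%. Acta2, Myl9 and Srf had at least 1, and Cnn1, Cald1 and Tpm2 had none in these windows. The boxes are in capitals below, each sequence is 30 bases read 5′ to 3′ on the strand of the gene, and positions are counted back from the start the table uses. That start lies inside the full extent of the gene given below for Acta2, Myl9 and Srf, so the Acta2 and Srf boxes lie within that extent and the Myl9 boxes before it.
Acta2, chr19:34255438-34255467, minus strand, near box 84 to 75 bases before the start: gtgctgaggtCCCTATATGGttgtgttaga
Acta2, chr19:34255388-34255417, minus strand, near box 34 to 25 bases before the start: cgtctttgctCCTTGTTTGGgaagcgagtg
Myl9, chr2:156775293-156775322, plus strand, exact box 161 to 152 bases before the start: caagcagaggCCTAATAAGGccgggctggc
Myl9, chr2:156775355-156775384, plus strand, near box 99 to 90 bases before the start: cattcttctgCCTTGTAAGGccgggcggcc
Srf, chr17:46556215-46556244, minus strand, 2 exact boxes 82 to 73 and 62 to 53 bases before the start: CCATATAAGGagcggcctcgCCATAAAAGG

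Acta2 (chr19:34240336-34255585, GRCm38.p6 as for the other genes) encodes smooth muscle alpha-actin, the thin filament actin of smooth muscle and of the early myocardium, and its window held the pair of near boxes above. In the cardiomyocyte gate it was at 4755 CPM (4680 to 4832) in the library labelled Ctrl and at 5524 (5461 to 5587) in the library labelled cKO. In the posterior heart field gate it was at 17.8 (16.1 to 19.7) and 60.8 (57.1 to 64.6). The level in the cardiomyocyte gate was thus 267-fold (241 to 297) higher than in the posterior heart field gate in the library labelled Ctrl and 90.9-fold (85.4 to 96.8) higher in the other. The gates were drawn on unthinned cells, so depth still entered which cells they held. After each cell had been thinned to 5000 UMIs, so that depth did not enter the detection of a gene, every one of the 162 and 314 cardiomyocyte gate cells had an Acta2 UMI. Of posterior heart field gate cells, 4.28% had one in the library labelled Ctrl (Clopper-Pearson interval 3.15 to 5.67) and 11.8% in the library labelled cKO (9.85 to 13.9). Without thinning these shares were 11.5% and 23.2%. Endothelial gate cells, which should lack Acta2, gave 3.88% (1.79 to 7.24) and 5.77% (3.02 to 9.86) after thinning. Their median depths were 17086.5 and 14021 UMIs before thinning, beside 18730.5 and 15265.5 in the posterior heart field gate. The share in the posterior heart field gate of the library labelled Ctrl lay within the interval of the endothelial share. The endothelial levels of 9.95 CPM (7.17 to 13.5) in that library and 43.7 (36.7 to 51.8) in the other were lower than those of the posterior heart field gate. A single endothelial gate cell of the library labelled cKO held 106 of its 135 Acta2 UMIs, and with the cell of most Acta2 UMIs left out of each library the endothelial levels were 8.12 (5.63 to 11.4) and 9.47 (6.34 to 13.6). The levels of the posterior heart field gate were then 16.4 (14.7 to 18.2) and 56.7 (53.2 to 60.4).

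Tagln (chr9:45929628-45936058) encodes SM22-alpha, an actin-binding protein that appears early in smooth muscle and in the heart tube. It was at 1447 CPM (1405 to 1489) and 1223 (1194 to 1253) in the cardiomyocyte gate of the libraries labelled Ctrl and cKO, and at 46.1 (43.2 to 49.0) and 81.3 (77.1 to 85.7) in the posterior heart field gate. The cardiomyocyte gate was 31.4-fold higher in the former library and 15.0-fold higher in the latter. Among thinned cells, 93.8% and 90.1% of the cardiomyocyte gate had a Tagln UMI, against 7.26% (5.78 to 8.98) and 12.7% (10.8 to 14.9) of the posterior heart field gate. The endothelial gate gave 6.03% (3.34 to 9.92) and 3.85% (1.67 to 7.44). The Ctrl share of the posterior heart field gate lay within that interval, but the endothelial levels of 20.1 CPM (16.1 to 24.9) and 11.7 (8.17 to 16.1) were lower than those of the posterior heart field gate. Without thinning the Ctrl shares were 16.98% and, in the endothelial gate, 11.1% (7.39 to 15.9).

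Myl9 (chr2:156775408-156781657) encodes the regulatory light chain of smooth muscle myosin, whose phosphorylation starts contraction. Its level was 1427 (1385 to 1469) and 1712 (1677 to 1748) CPM in the cardiomyocyte gate and 29.0 (26.7 to 31.3) and 52.6 (49.2 to 56.2) in the posterior heart field gate, a difference of 49.3-fold and 32.6-fold. A Myl9 UMI was found in 100% and 97.8% of thinned cardiomyocyte gate cells and in 8.10% (6.54 to 9.90) and 15.1% (12.96 to 17.4) of thinned posterior heart field gate cells, beside 4.74% (2.39 to 8.33) and 4.81% (2.33 to 8.66) in the endothelial gate. The share in the library labelled Ctrl lay just within the endothelial interval, while the endothelial levels of 9.24 CPM (6.57 to 12.6) and 22.0 (17.1 to 27.9) were lower than those of the posterior heart field gate. Of the 68 endothelial Myl9 UMIs of the library labelled cKO, 1 cell held 42. The unthinned Ctrl shares were 23.7% and, in the endothelial gate, 10.7% (7.03 to 15.4). Cnn1 (chr9:22099221-22109221) encodes calponin, which damps actomyosin in smooth muscle. It showed the same order at 284 (265 to 303) and 272 (258 to 287) against 2.17 (1.59 to 2.899) and 3.94 (3.05 to 5.01), a difference of 130-fold and 69.1-fold. A Cnn1 UMI was found in 69.8% and 65.0% of thinned cardiomyocyte gate cells and in 0.838% and 2.16% of thinned posterior heart field gate cells, beside 0 of 232 (which allows up to 1.29%) and 0.481% of thinned endothelial gate cells.

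Tpm2 (chr4:43513726-43523583), a beta-tropomyosin that lies along the thin filament, differed less between the populations. It was at 170 (156 to 185) and 171 (160 to 182) CPM in the cardiomyocyte gate and at 41.6 (38.9 to 44.5) and 51.2 (47.8 to 54.7) in the posterior heart field gate, which is 4.08-fold and 3.34-fold higher in the former. Cald1 (chr6:34598495-34775469), caldesmon, is an actin-binding inhibitor of myosin with smooth muscle and non-muscle forms that 3′ counts do not separate. It went the other way, at 313 (294 to 334) and 249 (236 to 263) in the cardiomyocyte gate and 424 (416 to 433) and 400 (391 to 410) in the posterior heart field gate. The log2 ratio of posterior heart field over cardiomyocyte gate was 0.44 (0.34 to 0.53) and 0.68 (0.60 to 0.77). A Cald1 UMI was present in 78.6% and 74.9% of thinned posterior heart field gate cells, and in 75.4% and 75% of thinned endothelial gate cells, so that Cald1 marked neither population. Actg2 (chr6:83512909-83536251), the gamma-actin of visceral smooth muscle, had few UMIs, with 18 and 15 UMIs in the cardiomyocyte gate and 6 and 9 in the posterior heart field gate. It is a close paralogue of Acta2 and Actc1, and how reads shared between such genes were counted was not examined here.

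Myocd (chr11:65173608-65269989) was at 167 CPM (153 to 181) in the cardiomyocyte gate of the library labelled Ctrl and at 84.3 (76.7 to 92.4) in that of the library labelled cKO. In the posterior heart field gate it was at 8.93 (7.70 to 10.3) and 8.41 (7.09 to 9.91). The cardiomyocyte gate was therefore 18.6-fold (15.8 to 22.1) and 10.0-fold (8.28 to 12.2) higher. Of thinned cells, 48.1% and 34.4% of the cardiomyocyte gate had a Myocd UMI, against 3.45% (37 of 1074) and 3.14% (32 of 1020) of the posterior heart field gate. In the endothelial gate 0.431% of thinned cells had a Myocd UMI in the library labelled Ctrl, and 0 of 208 (which allows up to 1.44%) in the library labelled cKO. Srf (chr17:46546838-46558267), which is transcribed in most cell types, was at 49.5 (42.1 to 57.9) and 29.96 (25.5 to 34.98) in the cardiomyocyte gate and 19.8 (18.0 to 21.8) and 13.1 (11.5 to 15.0) in the posterior heart field gate. The cardiomyocyte gate was 2.495-fold and 2.28-fold higher.

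**Figure D1:**
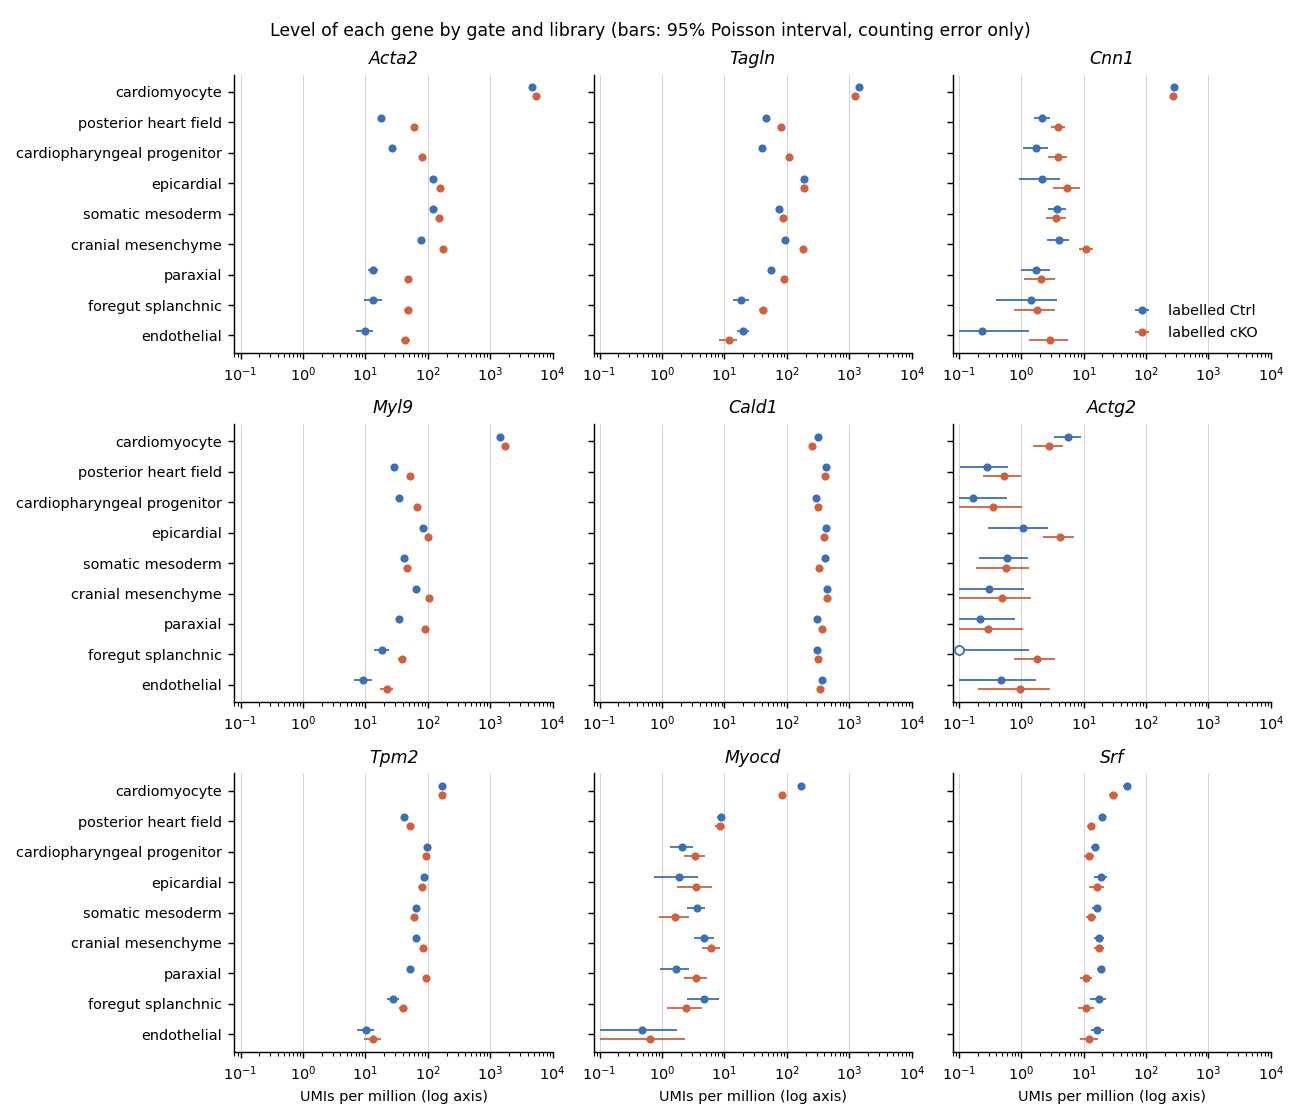
Each panel shows 1 gene, with CPM on a log axis and the 9 gates as rows; points are the library labelled Ctrl (blue) and the library labelled cKO (orange), bars are 95% Poisson intervals, an open point marks a level of 0 and values under 0.1 are drawn at 0.1. Acta2, Tagln, Cnn1, Myl9 and Myocd stand apart in the cardiomyocyte gate of both libraries, whereas Cald1 varies little between gates.

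Of the 8 members measured, 7 were at least 1.5-fold lower in the posterior heart field gate than in the cardiomyocyte gate in each library. These were Acta2, Tagln, Cnn1, Myl9, Tpm2, Myocd and Srf. A gene counted as measured when it reached 20 CPM in either population and 30 UMIs over both, which Actg2 did not. Cnn1, Myocd and Srf passed this limit only through the cardiomyocyte gate, where they were high. The same holds for Acta2 in the library labelled Ctrl. Of all genes measured, 18.8% were lower by as much in the library labelled Ctrl and 19.1% in the library labelled cKO. Members that were at least 1.5-fold higher in the posterior heart field gate were 0 of 8 in the library labelled Ctrl and 1 of 8, Cald1, in the library labelled cKO, where 29.8% and 25.6% of all genes were. The median log2 ratio of the 6 contractile genes measured was -5.30 in the library labelled Ctrl and -4.47 in the library labelled cKO, beside 0.22 and 0.17 over all genes. The genes and this contrast were chosen together, so nothing more is read from these counts.

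Across the 9 gates compared here, each with at least 50 cells in each library, the cardiomyocyte gate ranked first in both libraries for 7 of the 9 genes. The exceptions were Cald1, highest in the cranial mesenchyme gate (Foxc1 with Alx1 or Cyp26c1), and Actg2 in the library labelled cKO, listed first in the epicardial gate (Wt1 and Upk3b) at 4.17 CPM (2.22 to 7.13) from 13 UMIs, which overlaps the cardiomyocyte gate at 2.81 (1.57 to 4.63) from 15 UMIs. In the other 8 of these gates Acta2 ranged from 9.95 CPM in the endothelial gate to 122 in the epicardial gate in the library labelled Ctrl, and from 43.7 in the endothelial gate, mostly from the 1 cell named above, to 174 in the cranial mesenchyme gate in the library labelled cKO. Tagln was at 189 and 186 in the epicardial gate. Of these 9, the posterior heart field gate was in place 6 for Acta2 in both libraries and in places 6 and 7 for Tagln, and next after the cranial mesenchyme gate for Cald1. Gates next to each other in this order often had overlapping counting intervals: 4 of 8 neighbouring pairs for Acta2 in each library, 6 of 8 for Cald1, 7 of 8 for Cnn1 and Srf, and 7 and 8 of 8 for Actg2. Below the cardiomyocyte gate the order of Cnn1 and Srf is not resolved, nor is that of Actg2, whose first place was clear of the next gate in the library labelled Ctrl only.

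Single cells of the same gate also differed widely. The cardiomyocyte gate had a median of 22 Acta2 UMIs per thinned cell in the library labelled Ctrl (lowest 2, highest 70) and 27.5 in the library labelled cKO (2 to 80). At least 10 Acta2 UMIs were found in 93.2% and 93.6% of these cells. Of the posterior heart field gate, 1 of 1074 and 4 of 1020 thinned cells reached that number. At least 5 of the 7 contractile genes were detected together in 69.8% and 56.1% of cardiomyocyte gate cells and in 0.652% and 1.57% of posterior heart field gate cells. Cells of 1 library share its depth and its free RNA and are no replicates of a genotype.

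The marker limits themselves also bear on these levels. Posterior heart field gate cells just inside the limit, with exactly 1 Osr1 or 1 Foxf1 UMI, had Acta2 at 20.7 and 64.4 CPM. Cells just outside it, with a UMI of either gene but not both and in no other gate, had 169 and 387. The latter were left over after every gate had taken its cells, so these groups differ in more than the Osr1 and Foxf1 limit. For Myocd the values were 9.34 and 8.19 inside and 17.0 and 13.1 outside. Among cells that no gate took, 127 and 261 had at least 5 Tnnt2 UMIs but lacked Actn2 or Ttn. Cells in no gate held 26.2% and 33.2% of all Acta2 UMIs and 33.9% and 39.5% of all Myocd UMIs. The cardiomyocyte gate held 55.3% and 51.0% of the Acta2 UMIs and 34.7% and 31.3% of the Myocd UMIs, from 2.46% and 3.51% of the cells.

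In the comparison of the genotypes, the cardiomyocyte gate showed lower levels of both regulators in the library labelled cKO and no measured contractile gene past 1.5-fold. The log2 ratio of the library labelled cKO over the library labelled Ctrl was -0.98 (-1.17 to -0.80) for Myocd and -0.72 (-1.05 to -0.40) for Srf. For Acta2 it was 0.22 (0.19 to 0.24), for Myl9 0.26 (0.21 to 0.31), for Tpm2 0.01 (-0.14 to 0.17) and for Cnn1 -0.06 (-0.18 to 0.06). Tagln and Cald1 were lower, at -0.24 (-0.30 to -0.19) and -0.33 (-0.45 to -0.21). Of the 8 members measured, 2 were at least 1.5-fold lower (Myocd and Srf), a call met by 8.26% of the 5679 genes measured, and 0 were at least 1.5-fold higher, a call met by 2.78%. The median log2 ratio of the 6 contractile genes measured was -0.02, and that of all genes -0.04. Both pools held cells of both sexes, and cells with Xist and no Y-linked UMI and cells with the reverse came from different embryos of the same library. Tagln was at -0.48 (-0.55 to -0.40) in the former and at 0.22 (0.13 to 0.31) in the latter, so its direction was not shared by the embryos. Myocd was at -1.02 (-1.27 to -0.78) and -0.65 (-0.99 to -0.31), and Srf at -0.90 (-1.35 to -0.45) and -0.25 (-0.83 to 0.33).

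**Figure D2:**
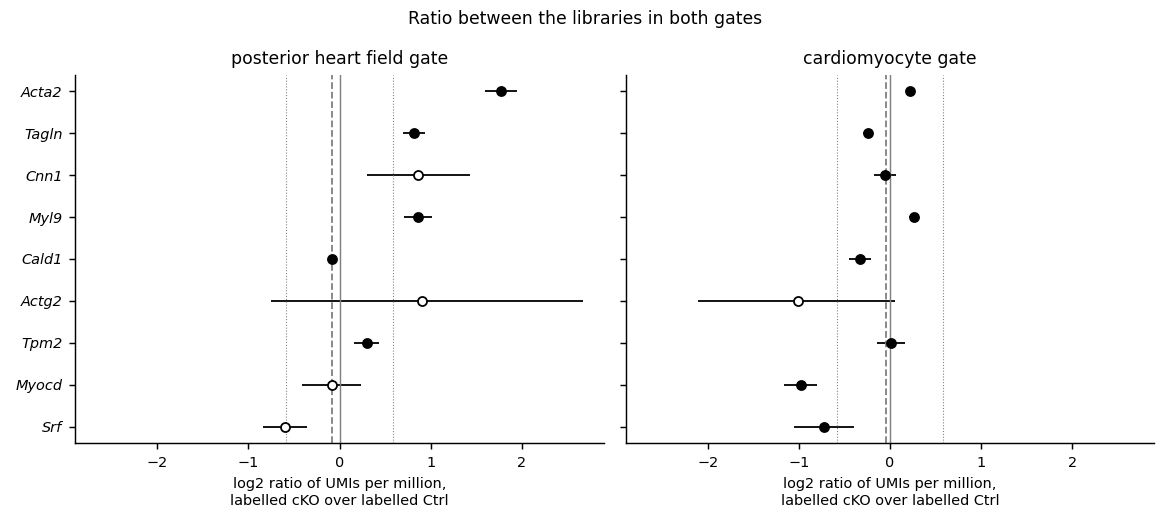
The log2 ratio of CPM in the library labelled cKO over the library labelled Ctrl is shown for each gene in the posterior heart field gate (left) and the cardiomyocyte gate (right), with exact conditional 95% intervals. Filled points are genes that passed the limit on low values, open points are genes that did not, dotted lines mark 1.5-fold and the dashed line the median of all genes measured; Acta2, Tagln and Myl9 lie beyond 1.5-fold on the left and Myocd and Srf on the right.

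The lower Myocd level was also seen when the cardiomyocyte gate was divided by chamber markers. Cells with at least 3 UMIs of Myl2, a ventricular light chain, numbered 78 and 115. Those with fewer Myl2 UMIs were divided by a UMI of Isl1, a gene of newly added second heart field myocardium, into 29 and 68 Isl1-positive and 55 and 132 Isl1-negative cells. Myocd was at 131 and 86.9 CPM in Myl2-high cells, 204 and 89.5 in Isl1-positive cells and 203 and 78.5 in Isl1-negative cells, in the libraries labelled Ctrl and cKO. The log2 ratios were -0.59 (-0.89 to -0.30), -1.19 (-1.59 to -0.80) and -1.37 (-1.68 to -1.07). In the library labelled Ctrl the Myl2-high cells thus had a lower Myocd level than both Myl2-low subsets, and in the library labelled cKO the intervals of all 3 subsets overlapped. Srf was lower in the library labelled cKO in all 3 as well, with log2 ratios of -0.57, -1.45 and -0.61 and intervals below 0.

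Tagln and Cald1 differed between the libraries in the Myl2-low subsets and not beyond counting error in the Myl2-high subset. Tagln was at 1497 and 1484 CPM in Myl2-high cells, a log2 ratio of -0.01 (-0.09 to 0.06). It was at 1557 and 1136 in Isl1-positive cells (-0.45) and at 1308 and 1011 in Isl1-negative cells (-0.37). Cald1 was at 228 and 220 in Myl2-high cells, at 637 and 418 in Isl1-positive cells and at 278 and 179 in Isl1-negative cells. Acta2 was slightly higher in the library labelled cKO in each subset, with log2 ratios of 0.24, 0.10 and 0.15.

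**Figure D3:**
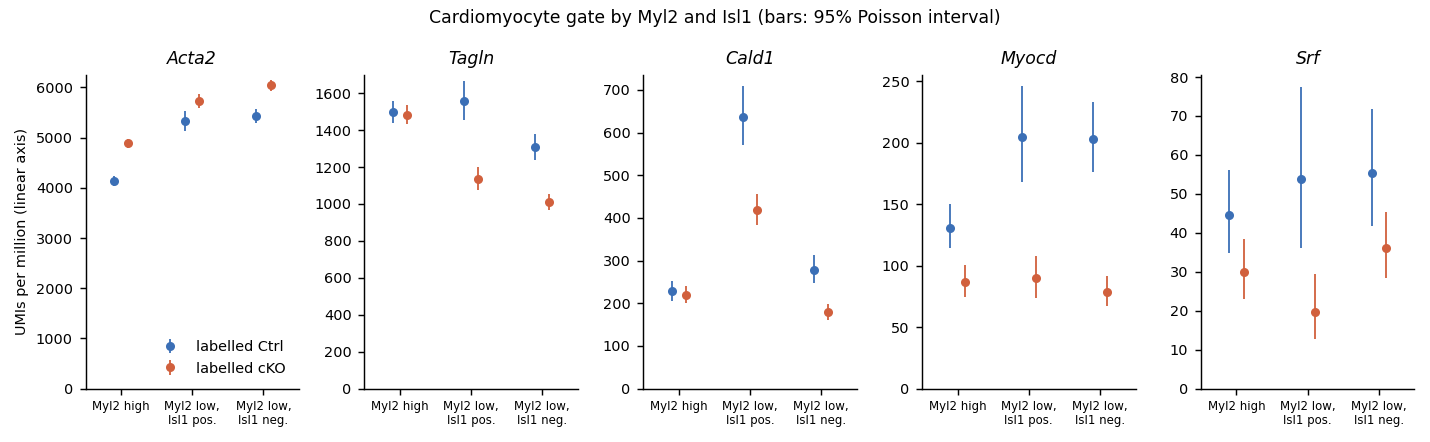
CPM on linear axes from 0 for 5 genes in 3 subsets of the cardiomyocyte gate, for the library labelled Ctrl (blue) and the library labelled cKO (orange), with 95% Poisson intervals. Myocd is lower in the library labelled cKO in all 3 subsets, and Tagln and Cald1 in the Myl2-low subsets.

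In the posterior heart field gate the pattern was different: 3 contractile genes were higher in the library labelled cKO, and the interval of the Myocd ratio spanned 0. Acta2 was 3.41-fold higher, with a log2 ratio of 1.77 (1.60 to 1.94), and Tagln and Myl9 had log2 ratios of 0.82 (0.70 to 0.94) and 0.86 (0.71 to 1.01). Tpm2 was at 0.30 (0.16 to 0.44) and Cald1 at -0.08 (-0.13 to -0.04). Myocd was at -0.09 (-0.41 to 0.24). Srf, at -0.60 (-0.84 to -0.36), was lower as in the cardiomyocyte gate. Of the 5 members measured, 3 were at least 1.5-fold higher (Acta2, Tagln and Myl9), a call met by 1.65% of the 5764 genes measured. Acta2 passed the limit on low values only through the library labelled cKO, where it was high. Of the same 5, 0 were at least 1.5-fold lower, a call met by 9.52%. Cnn1, Actg2, Myocd and Srf fell below the limit on low values. Srf did so narrowly, at 19.8 CPM in the library labelled Ctrl against a limit of 20 CPM. With a limit of 5 CPM, which Acta2 passed in both libraries, the same 3 of 7 members measured were at least 1.5-fold higher, beside 2.01% of 9271 genes, and Srf was lower, beside 12.4%. The median log2 ratio of the 5 contractile genes measured was 0.82, beside -0.08 over all genes. The size of these differences also varied between embryos of the pools, with Acta2 at 1.31 (1.07 to 1.54) in cells with Xist and no Y-linked UMI and at 3.19 (2.83 to 3.57) in cells with the reverse. With at least 2 UMIs of Osr1 and of Foxf1 required, Acta2 was at 1.86 but Tagln and Myl9 at 0.35 and 0.51, under 1.5-fold. Without cells holding a Tnnt2 UMI, Acta2 was at 1.15, Myl9 at 0.65 and Tagln at 0.57, the last just under 1.5-fold. Myocd was then at -0.65 (-1.21 to -0.11), lower in the library labelled cKO.

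Most of the heart muscle genes read were also higher in this gate of the library labelled cKO. Tnnt2, cardiac troponin T, was at 13.4 CPM in the library labelled Ctrl and 32.6 in the library labelled cKO, which gives a log2 ratio of 1.28 (1.07 to 1.49). Actc1, cardiac alpha-actin, was at 21.1 and 48.0, and Myl7, the atrial light chain, at 74.8 and 143.7. The summed level of 9 heart muscle genes that the gates did not use was 141 and 261, with 0 of the 9 genes at 0 in either library. Of these 9, only Ryr2 was lower in the library labelled cKO, at 10.5 and 8.12 CPM. Actn2, which defined the cardiomyocyte gate, had 9 and 4 UMIs. Acta2 UMIs per Tnnt2 UMI in the posterior heart field gate were 0.978 times and 1.28 times what they were in the cardiomyocyte gate of the same library. The same quotient was 8.31 and 7.75 times for Tagln, 5.30 and 3.58 times for Myl9, 14.0 and 11.6 times for Myocd and 353 and 187 times for Cald1. Set against Actc1 instead, Acta2 was at 2.14 and 3.2 times and Tagln at 18.2 and 19.3 times its proportion in the cardiomyocyte gate. The quotient of Acta2 thus depended on the heart muscle gene it was set against, and Tnnt2 also defined the cardiomyocyte gate. The part of heart muscle transcripts, or of the globin transcripts given above, in the difference between the libraries was not tested.

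The higher levels were not particular to the posterior heart field gate. The log2 ratio of Acta2 was above 0, with its whole interval, in 9 of 9 gates. In the endothelial gate, at 2.14 (1.63 to 2.67), this rested on the 1 cell named above: the thinned share of cells with an Acta2 UMI was 3.88% and 5.77%, with overlapping intervals, and with the cell of most Acta2 UMIs left out of each library the ratio was 0.22 (-0.55 to 0.98). Without such cells Acta2 was above 0 in 8 of 9 gates, from 0.21 (0.09 to 0.33) in the somatic mesoderm gate to 2.31 (1.92 to 2.71) in the paraxial gate, and at 1.79 (1.61 to 1.97) in the posterior heart field gate. This setting was chosen after seeing the data. In the paraxial gate (Meox1 and Tcf15), which lies outside the heart fields, Acta2 was at 13.4 and 47.7. Myl9 was above 0 in 8 of 9 gates, and in 6 without the cell of most Myl9 UMIs in each library, the exceptions then being the endothelial, epicardial and somatic mesoderm gates. Tagln was above 0 in 6 gates and below 0 in the cardiomyocyte and endothelial gates, at 20.1 and 11.7 in the latter. Srf was below 0 in 4 gates and above 0 in none of the 9. In the 8 gates other than cardiomyocytes, Tnnt2 had a log2 ratio above 0 with its whole interval in 6 and below 0 in 1, the somatic mesoderm gate (Msx1 and Msx2). Acta2 there was at 121 and 152 CPM.

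**Figure D4:**
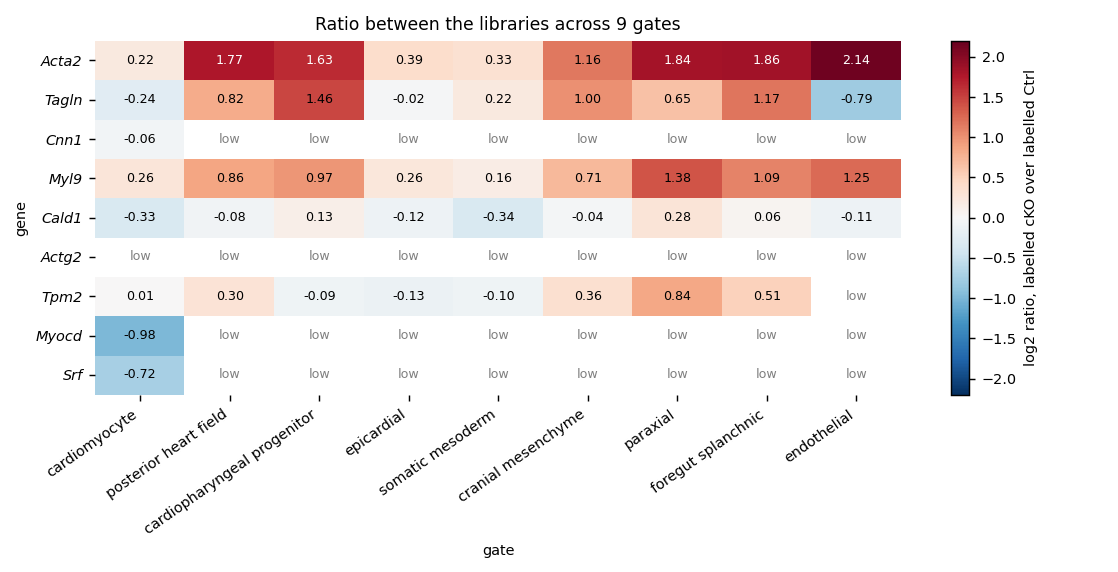
Each cell gives the log2 ratio of CPM in the library labelled cKO over the library labelled Ctrl for 1 gene (row) in 1 gate (column), red for higher and blue for lower in the library labelled cKO; "low" marks genes below the limit on low values. Acta2 is positive in all 9 gates, in the endothelial gate mostly through 1 cell, while Myocd and Srf pass the limit only in the cardiomyocyte gate, where both are negative.

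Within the posterior heart field gate, thinned cells were divided by their Tnnt2 UMIs. In cells with 0 Tnnt2 UMIs (1024 and 937 cells) Acta2 was at 10.4 CPM (7.75 to 13.5) in the library labelled Ctrl and 27.7 (23.2 to 32.9) in the library labelled cKO. With 1 to 2 Tnnt2 UMIs it was at 38.1 and 194, from 4 of 42 cells with 8 Acta2 UMIs and from 20 of 64 cells with 62. With 3 or more it was at 725 and 979, from 3 of 8 cells with 29 UMIs and from 16 of 19 cells with 93, so that few cells carried the Ctrl values. Myocd was higher in cells with Tnnt2 UMIs than in those without, from 5.47 and 3.63 to 42.9 and 46.9 and then to 150 and 63.2, the last from 6 UMIs in each library. The Myocd intervals of the cells with 1 to 2 and with 3 or more Tnnt2 UMIs overlapped in both libraries, at 19.6 to 81.4 and 55.0 to 326 in the library labelled Ctrl and 26.2 to 77.3 and 23.2 to 137 in the other. Tagln was not in the library labelled Ctrl, where it was at 39.5 in cells without Tnnt2 and had 1 UMI in the 42 cells and 0 UMIs in the 8 cells with it. It was at 66.6, 90.6 and 358 in the library labelled cKO. Cald1 was at 439 and 422 in cells without Tnnt2, close to its level in the whole gate. Acta2, Tagln and Myl9 were each higher in the library labelled cKO among cells without a Tnnt2 UMI, at 27.7, 66.6 and 43.5 against 10.4, 39.5 and 24.0, with intervals that did not overlap.

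**Figure D5:**
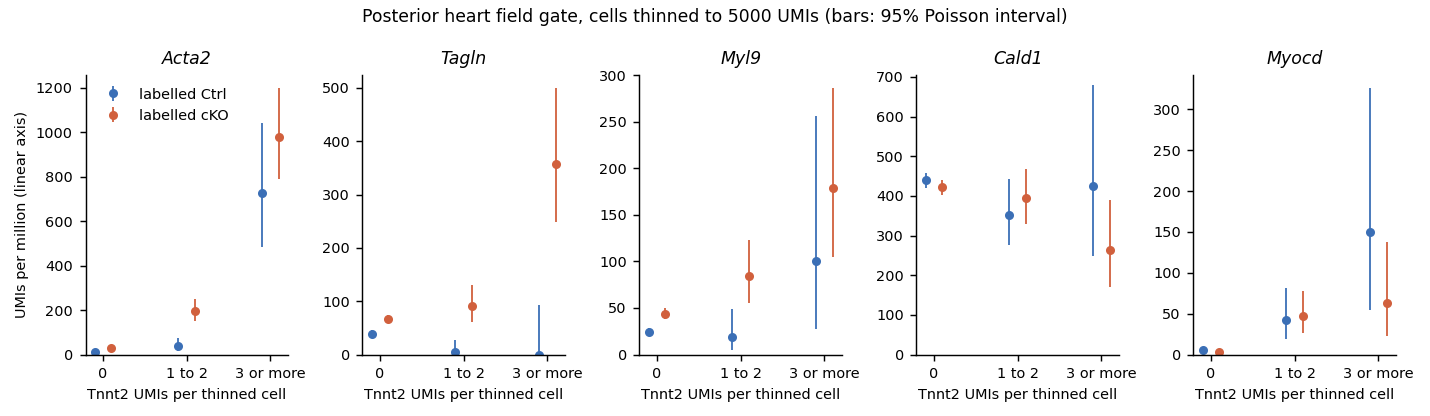
CPM on linear axes from 0 for 5 genes in posterior heart field gate cells thinned to 5000 UMIs, divided by their Tnnt2 UMIs, for the library labelled Ctrl (blue) and the library labelled cKO (orange), with 95% Poisson intervals. Acta2 is higher with more Tnnt2 UMIs in both libraries, Myocd is higher with than without them but has overlapping intervals for 1 to 2 and 3 or more, Tagln is higher in the library labelled cKO but with 1 and 0 UMIs in the library labelled Ctrl, and Cald1 is higher in neither.

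Posterior heart field gate cells that held a Myocd UMI numbered 37 and 32 after thinning. Acta2 was at 189 and 206 CPM in them and at 10.6 and 51.0 in the 1037 and 988 cells without one. An Acta2 UMI was found in 6 of the 37 (16.2%, 6.19 to 32.0) and 7 of the 32 (21.9%, 9.28 to 40.0), with 35 and 33 UMIs in all, against 3.86% (2.77 to 5.22) and 11.4% (9.52 to 13.6) of the cells without Myocd. Most cells with a Myocd UMI thus had no Acta2 UMI, and the library labelled cKO had overlapping intervals of these shares. Tnnt2 was at 168 and 231 against 10.99 and 25.5, found in 11 and 16 cells with a Myocd UMI. Tagln was at 21.6 and 50 against 38.4 and 74.3, with overlapping intervals, and Cald1 at 427 and 312.5 against 436 and 420. In the cardiomyocyte gate, where the division leaves 78 and 108 cells with a Myocd UMI, Acta2 was at 5403 and 6396 with it and 4840 and 5456 without it. The summed levels of Acta2 and of Tnnt2 in the posterior heart field gate were thus higher over the cells with a Myocd UMI, carried by 6 and 7 cells for Acta2.

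The wider set of 45 genes tied to smooth muscle held 19 genes measured in the posterior heart field gate and 24 in the cardiomyocyte gate. In the posterior heart field gate 1 was at least 1.5-fold higher in the library labelled cKO, Actc1 at a log2 ratio of 1.19 (1.02 to 1.36), and 3 were lower, which is 1 and 3 of 19 beside 1.65% and 9.52% of all genes measured. The latter were Jag1, a Notch ligand, from 55.8 to 33.4 CPM (-0.74), Notch3, a receptor of vascular smooth muscle, from 28.1 to 17.4 (-0.70), and Actn1, a non-muscle alpha-actinin, from 104 to 65.1 (-0.68). Of these, Notch3 passed the limit on low values only through the library labelled Ctrl, where it was high. Prrx1, a mesenchymal homeobox gene and next in size, was at -0.56. The median of the 19 was -0.21. In the cardiomyocyte gate 2 were higher, Csrp1 at 0.76 and Tagln2 at 0.73, both actin-associated, and 4 were lower, which is 2 and 4 of 24 beside 2.78% and 8.26% of all genes measured. Cyr61, a matricellular gene that SRF switches on, went from 57.7 to 27.0 (-1.10) and Jag1 from 75.1 to 35.4 (-1.08). Lmod1, an actin nucleator of smooth muscle that responds to myocardin, was at 95.9 and 58.2 (-0.72) and Actn1 at -0.70. The median of the 24 was -0.11. Both cofactors of the myocardin family in the set, Mkl1 and Mkl2, lay under the limit on low values in both gates.

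Over 20 points, each a gate, or the cells in no gate, in a library, with at least 50 cells, the genes whose log2 level was most like that of Myocd among 7459 genes were Fbxo32 (Pearson's r = 0.957), Slc16a12 (0.941), Hrc (0.937), Cox20 (0.936) and Jph2 (0.935). Members and the genes that defined the gates, Tnnt2, Actn2 and Ttn among them, were left out of this ranking. Hrc and Jph2 encode proteins of the calcium stores of heart muscle and Fbxo32 a muscle ubiquitin ligase. For the mean of the 7 contractile genes they were Tpm1 (0.951), Csrp3 (0.945), Slc8a1 (0.944), Nexn (0.9396) and Smim8 (0.939), of which Tpm1 and Nexn encode filament proteins and Csrp3 a muscle LIM protein. The correlation with Myocd was 0.923 for Cnn1, 0.876 for Myl9, 0.823 for Tagln, 0.822 for Acta2, 0.780 for Srf, 0.656 for Tpm2, 0.599 for Actg2 and -0.17 for Cald1. These values describe populations that share libraries, and the single high cardiomyocyte gate weighs on each of them.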

How the data were processed

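The deposited matrices hold raw counts of UMIs per gene and cell barcode, which the authors made with Cell Ranger 3.1.0 on the mm10 genome; barcodes are those called as cells, with no normalization. The totals were 132017331 UMIs in 7418 barcodes (Ctrl) and 162874391 in 10281 (cKO). Cells with under 1000 genes or over 10% mitochondrial UMIs were left out (411 and 508). The highest Scrublet scores (scanpy 1.11.5) were removed at 0.8% per 1000 barcodes (416 and 804), because the automatic threshold marked 0% and 7.81%. The gates were assigned in a fixed order, the endothelial gate (Cdh5 and Pecam1) before the others named. Some gated cells are not reported here and enter no comparison across gates. UMIs were summed per gate and library and divided by the gate's total (CPM). Levels carry exact Poisson intervals, ratios exact conditional intervals and shares Clopper-Pearson intervals (scipy 1.17.1), at 95%, for counting error only; a count of 0 was taken to allow 3 counts. The ratio code was tested on simulated data. With 1 library per group no test was made, and the single-cell model of the study was not run. All members were named. Of the wider set, the 5 measured genes with the largest ratio in each gate were to be named. By likeness, the 5 highest correlations of log2(CPM + 1) were to be named, among genes that were neither members nor gate genes. Members, lists and gates were chosen with earlier results of these data known. Gene coordinates are those of a RefSeq table of GRCm38.p6, which held all 9 genes. RefSeq genes overlap Tagln (Pcsk7), Tpm2 (Car9), Cald1, Actg2, Myocd and Srf, and whether counting used strand is not stated in the sources used here. A further 14 alternatives of cells, gates and scaling were tried.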

Additional observations from a re-analysis of the deposited data

Results flagged for a closer look

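Tagln had opposite directions in the gates compared. Its log2 ratio of the library labelled cKO over the library labelled Ctrl was 0.82 (0.70 to 0.94) in the posterior heart field gate and -0.24 (-0.30 to -0.19) in the cardiomyocyte gate, both with intervals for counting error that exclude 0. With 1 library per genotype, the difference between the gates was not tested. In the cardiomyocyte gate the direction was not shared by the embryos of the pools, at -0.48 (-0.55 to -0.40) in cells with Xist and no Y-linked UMI and 0.22 (0.13 to 0.31) in cells with a Y-linked and no Xist UMI.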

How the results depend on the processing

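No paired analysis was possible because each group has 1 library, and for the same reason no library could be left out. Of 112 values for the 8 main results under 14 alternatives, 76 moved by less than the counting interval of the value reported, 36 moved by more, and none turned a value past 1.5-fold to the other direction. Contractile values here are medians over all 7 genes, so they differ slightly from the medians over measured genes.

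In the posterior heart field gate without Tnnt2-positive cells, the log2 ratio of cKO over Ctrl was -0.65 for Myocd, against -0.09, and -0.12 for Cnn1, against 0.86, which turned its direction. The contractile median there stayed between 0.41 and 1.41 under all 14, with 0.86 as reported. In the cardiomyocyte gate the contractile median was -0.06 and became -0.21 with doublets kept, -0.20 with every barcode and 0.19 in cells with a Y-linked and no Xist UMI. Myocd, at -0.98, became -1.18, -1.19 and -0.65.

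For posterior heart field over cardiomyocyte gate, the contractile median was -4.97 in the library labelled Ctrl and -3.91 in that labelled cKO. With doublets kept it was -4.79 and -3.74, with every barcode -4.78 and -3.74, with at least 2 UMIs of Osr1 and Foxf1 -5.24 and -4.50, with Tbx5 also required -5.40 and -4.41, and without Tnnt2-positive cells -4.86 and -4.06. With gates on thinned cells it was -5.74 and -4.67, with cells of both gates counted in each -4.86 and -3.76, in cells with Xist and no Y-linked UMI -5.17 and -4.00, in those with the reverse -5.32 and -4.04, as a mean per cell -5.17 and -4.18, and with median ratio scaling -5.20 and -4.08. Myocd, at -4.22 and -3.32, was -3.65 and -2.77 with Tbx5 required and -5.13 and -4.77 without Tnnt2-positive cells. It was -3.90 in Y-linked cells of the library labelled Ctrl, and -2.95 with doublets kept and -2.96 with every barcode in the library labelled cKO. The cause was not tested.

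At 2-fold in place of 1.5-fold, 0.416% of all genes were higher and 0.555% lower in the posterior heart field gate of the library labelled cKO, 0.511% and 0.933% in the cardiomyocyte gate, and 14.2% and 12.1% (Ctrl) or 10.9% and 11.9% (cKO) in posterior heart field over cardiomyocyte gate. Of the members called between the libraries at 20 CPM, only Acta2 in the posterior heart field gate was past 2-fold. Tagln and Myl9 there (0.82 and 0.86) and Myocd and Srf in the cardiomyocyte gate (-0.98 and -0.72) were under it. With a level limit of 5 CPM, 5.46% were 1.5-fold higher in the cardiomyocyte gate. At that limit 3 of 9 members were 1.5-fold lower in the cardiomyocyte gate (Actg2, Myocd and Srf), beside 11.8% of all genes. Actg2 passed it only through the library labelled Ctrl, where it was high (5.68 and 2.81 CPM), and its interval of -2.11 to 0.06 spans 0. The number of UMIs limits Actg2 in the posterior heart field gate, with 6 and 9. Cnn1, Myocd and Srf there, and Actg2 in the cardiomyocyte gate, passed the limit of 30 UMIs and missed only that of 20 CPM.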
